A study of Mus musculus with 12 samples.

Results

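The 42 genes described here mark endothelium, the cells that line blood and lymphatic vessels. They were chosen by name as pan-endothelial, tip cell, arterial and lymphatic genes, from 53801 genes in the deposited count tables. All 42 passed the filter on low counts and were among the 18365 genes tested. They were followed in the maxillary prominence of wild-type C57BL/6 mouse embryos, the facial swelling that forms the upper jaw. Whole tissue was dissected on 4 embryonic days, called E10.5, E11.5, E12.5 and finally E14.5, and gave 3 libraries of polyadenylated RNA per stage. Tissue of 7 littermates was used, and the labels do not say whether that number holds for each library or for a stage. The libraries are called independent RNA samples, but separate litters are not stated, so the tests measure how far these libraries spread, which may be technical. The labels describe E14.5 in a block of their own, so its stage and its handling cannot be told apart. Its replicate 1 is titled as 2 parts and was taken as 1 library.

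Endothelial cells arise from mesoderm under the control of ETS and SoxF transcription factors, with Tal1 and Lmo2 acting in the shared precursors of blood and endothelium. VEGF-A signals through Kdr to drive vessel growth, Flt1 binds the same ligand and limits it, and angiopoietins act through Tek to stabilise vessels. Tip cells lead new sprouts and express Esm1, Apln and Dll4, Notch signals set arterial identity, and Prox1 with Flt4 directs the outgrowth of lymphatic vessels from veins. In the face, vessels supply a mesenchyme that comes mostly from neural crest, while the endothelium itself does not.

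Libraries held 28294837 to 33941430 counts in genes. Facial mesenchyme markers (9 genes, among them Prrx1, Twist1 and Msx1) summed to 1093 to 2107 CPM (a gene's share of all counts in genes, scaled to 1000000) over the 12 libraries, and were present in all. Alignments that fell in no annotated gene made up 1.92% to 4.88% of the table in E10.5 libraries and 2.16% to 2.42% in E11.5 libraries. In E12.5 libraries they made up 5.03% to 5.43%, and in E14.5 libraries 5.78% to 6.21%. The 4.88% belongs to E10.5 replicate 3. Marker lists of other cells moved as well. Macrophage markers (12 genes, none at 0 in any library) summed to 63.25 to 80.98 CPM at E10.5 and 43.49 to 53.12 CPM at E11.5. The same markers reached 107.2 to 113.5 CPM at E12.5, and 251.7 to 286.5 CPM at E14.5. Erythroid genes (12) summed to 3224 to 3853, 5320 to 6764, 3371 to 4073 and 1602 to 3360 CPM in the same order of stages. Megakaryocyte and platelet genes (8) summed to 20.7 to 25.1, 44.3 to 54.5, 31.0 to 39.1 and 18.9 to 24.0 CPM. Their part in the results below was not tested. Levels are given as CPM over library totals, while fold changes and tests use edgeR's quasi-likelihood fit with TMM scaling, an adjusted p under 0.05 counting as a call. Values written with ± are the mean and SD of 3 libraries. On library totals the log2 fold changes of all genes stood, at their median, 0.0323 higher at E11.5 against E10.5, 0.215 higher at E12.5 against E11.5, 0.0756 higher at E14.5 against E12.5 and 0.323 higher at E14.5 against E10.5. A small fold change can therefore have the opposite sign to the CPM values beside it.

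The summed level of the endothelial genes was lowest at E11.5 and highest at E14.5. The 42 genes together measured 723.1, 688.9 and 1005 CPM in E10.5 replicates 1, 2 and 3, 586, 487.5 and 576 CPM at E11.5, 1125, 853.4 and 1142 CPM at E12.5 and 1623, 1392 and 1627 CPM at E14.5. The libraries of E11.5 lay below those of every other stage and those of E14.5 above every other. The ranges of E10.5 and E12.5 overlapped. By mean CPM 37 of the 42 genes were lowest at E11.5 and 37 were highest at E14.5. How many of all genes were lowest or highest at these stages was not counted. On the CPM scale the E12.5 libraries lay above those of E11.5 for 42.9% of all genes tested. Those of E14.5 lay above those of E10.5 for 51%. In whole tissue, a change in the number of endothelial cells and a change in RNA per cell cannot be told apart. Within each stage the genes also moved together. E10.5 replicate 3 was the highest library of its stage for 39 of 42 genes, against 54% of all genes tested. Replicate 2 was the lowest library for 27 genes at E10.5, 32 at E11.5, 34 at E12.5 and 37 at E14.5 (64.3%, 76.2%, 81% and 88.1%), against 49%, 36.8%, 31.8% and 40.8% of all genes. The map of the genes by library shows both patterns.

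**Figure D1:**
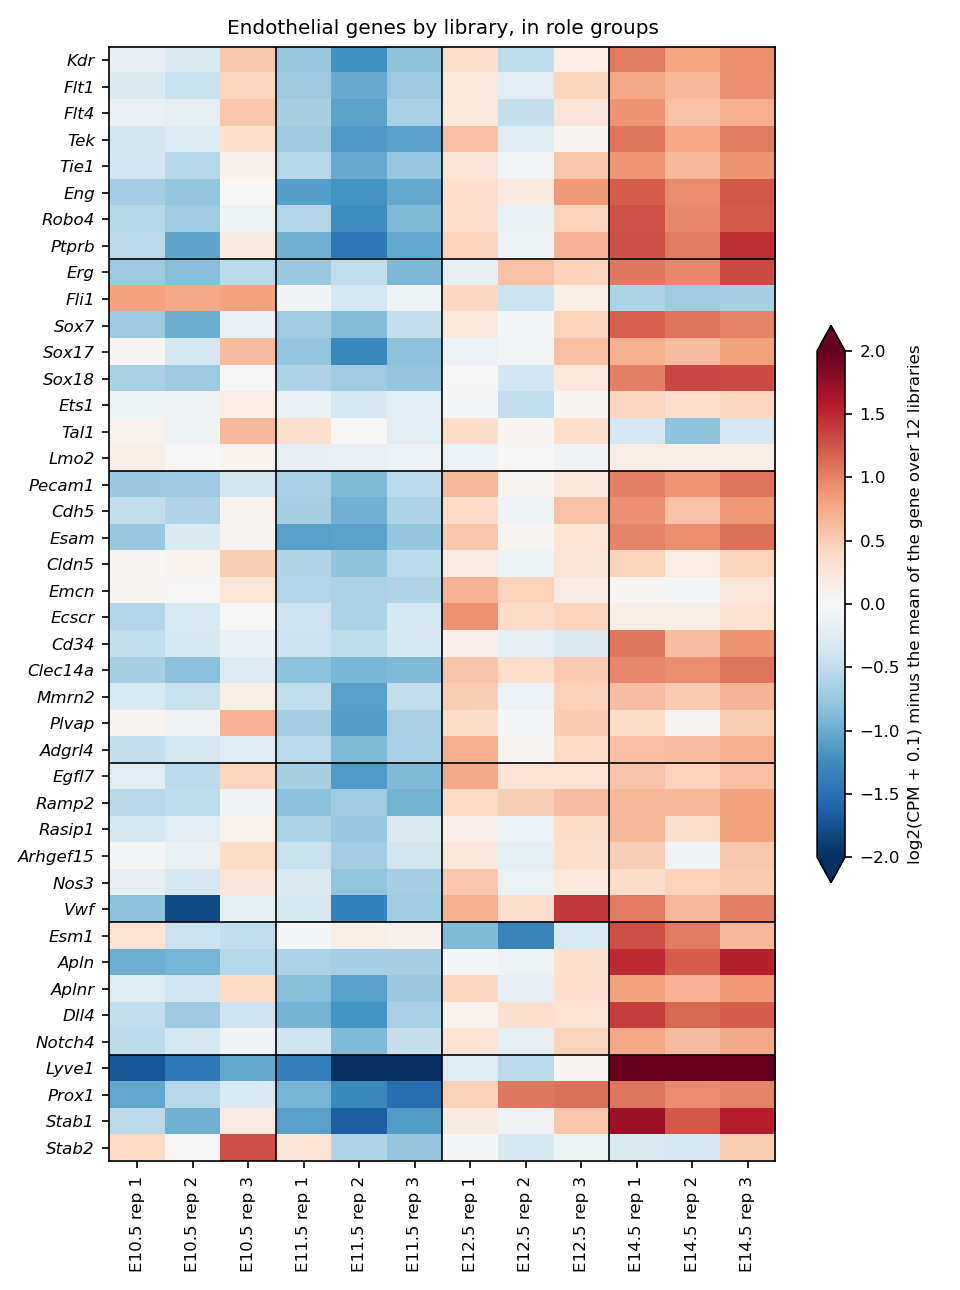
Level of each endothelial gene in each library, as log2(CPM + 0.1) minus its mean over the 12 libraries, with genes in 6 role groups (rows) and libraries in stage order (columns). Most rows are blue at E11.5 and red at E14.5, Fli1 is red at E10.5 and blue at E14.5, and E10.5 replicate 3 is the reddest column of its stage.

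At E11.5 against E10.5, 20 of the 42 genes fell and none rose, where 12.9% of all genes tested fell and 12.2% rose. The median log2 fold change was -0.52 over the 42 genes and -0.0387 over all genes. Libraries of E11.5 all lay below those of E10.5 for 21 genes and above them for none (19.2% and 21.9% of all genes). The falls ranged down to -1.17 for Sox17, and 39 of 42 values were negative. Of the called genes, 7 were among the 8 receptors and 5 among the 11 junction and surface proteins. At an unadjusted p under 0.05 edgeR also had 0 genes higher, and DESeq2 and limma-voom had 0 at an adjusted p under 0.05. Leaving out E11.5 replicate 2 brought the count that fell to 13, where 1486 of 18974 genes fell over the whole table.

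At E12.5 against E11.5, 34 genes rose and 1, Esm1, fell, where 27.1% of all genes rose and 22.2% fell. The median log2 fold change was 0.82 over the 42 genes and 0.0637 over all genes. Libraries of E12.5 all lay above those of E11.5 for 37 genes and below them for 1 (42.9% and 13.4% of all genes). All 8 receptors, 10 of 11 junction and surface proteins and 5 of 6 secreted and intracellular proteins rose. The share of alignments outside genes did not overlap between these stages. With that share as a covariate 3 genes rose (Clec14a, Ramp2 and Prox1) and none fell, where 407 and 286 genes did so over the whole table. Set against E10.5, 13 genes were higher at E12.5 and 6 lower (28% and 25.5% of all genes), with a median log2 fold change of 0.26. The libraries lay apart upward for 14 genes and downward for 2 (39.9% and 14.6% of all genes). On library totals 21 were higher and 1 lower in that comparison, where 7295 and 2565 of 18365 genes were so over the whole table. Without E10.5 replicate 3, 20 were higher, where 5453 of 18921 genes were.

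At E14.5 against E12.5, 23 genes rose and 4 fell (Fli1, Tal1, Emcn and Ecscr), where 23% of all genes rose and 24% fell. The median log2 fold change was 0.47 over the 42 genes and -0.00947 over all genes. Libraries of E14.5 all lay above those of E12.5 for 28 genes and below them for 3 (31.7% and 23.3% of all genes). Every receptor and every tip cell and arterial gene rose, while none of the 6 secreted and intracellular proteins passed the test. Without E12.5 replicate 2, the library with the lowest levels of that stage, 15 genes rose, where 3900 of 18836 did over the whole table. Over the whole course, E14.5 against E10.5, 28 genes were higher and 5 lower (36.6% and 33.8% of all genes), and the libraries lay apart upward for 34 and downward for 2 (51% and 24.6%). With a covariate for the share of alignments in no gene, 13 were higher over that span, where 3576 of 18365 genes were.

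**Figure D2:**
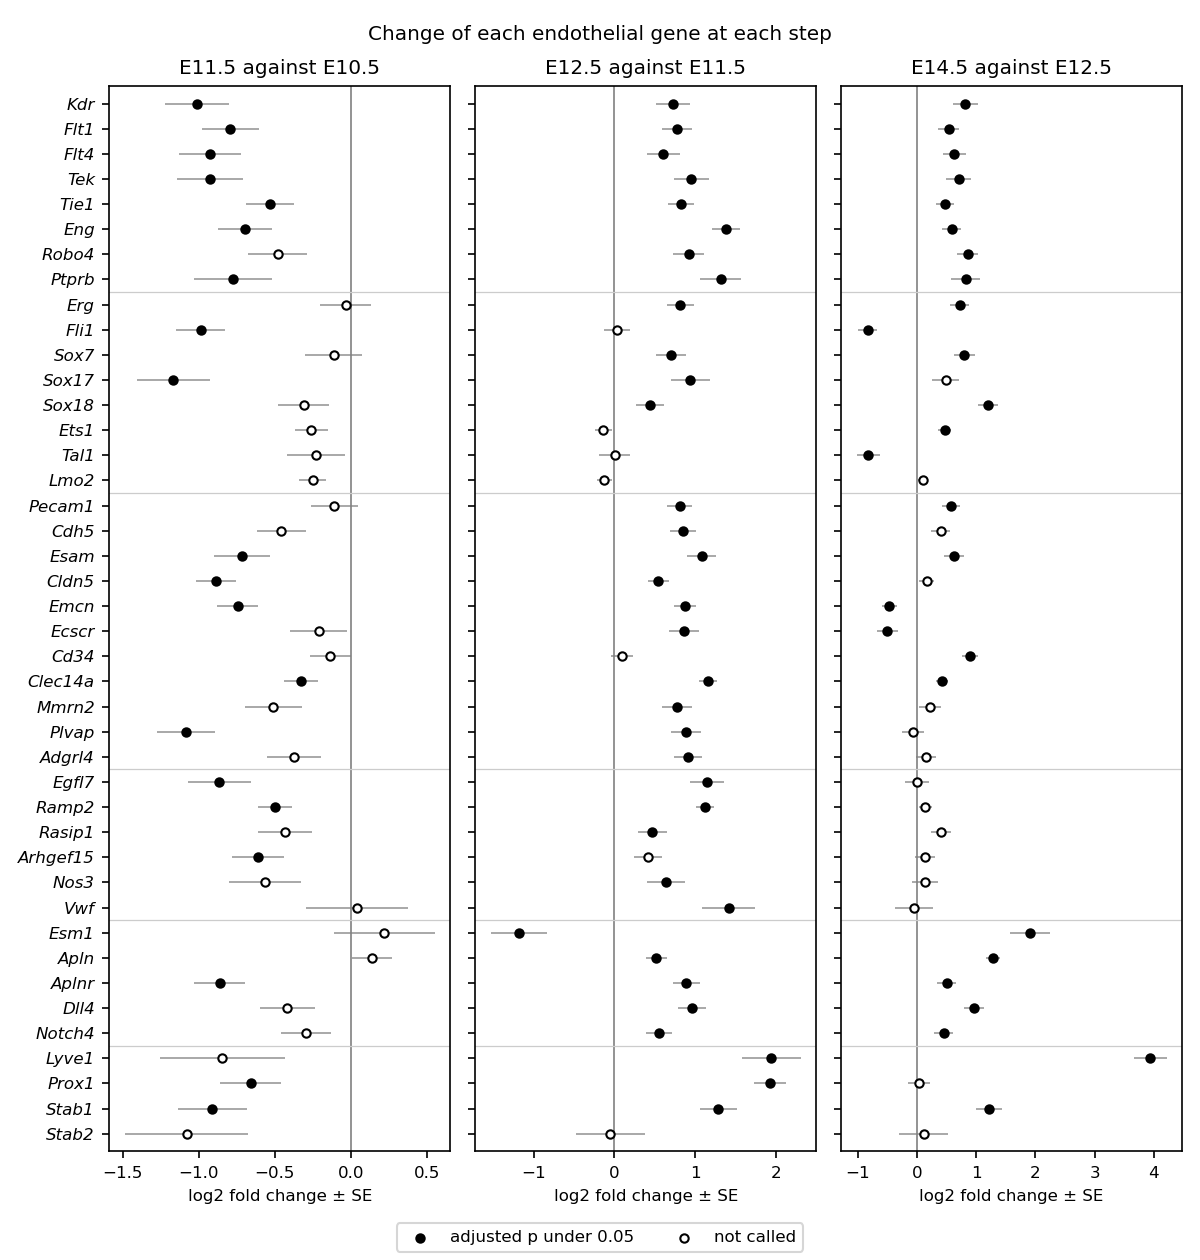
Log2 fold change with SE of each endothelial gene at the 3 steps, from a fit over all 12 libraries, with filled points for adjusted p under 0.05 and open points for genes not called. In the first panel no filled point is to the right of 0, in the middle panel Esm1 is the only filled point to the left, and in the last panel Lyve1 lies far to the right at 3.94.

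**Figure D3:**
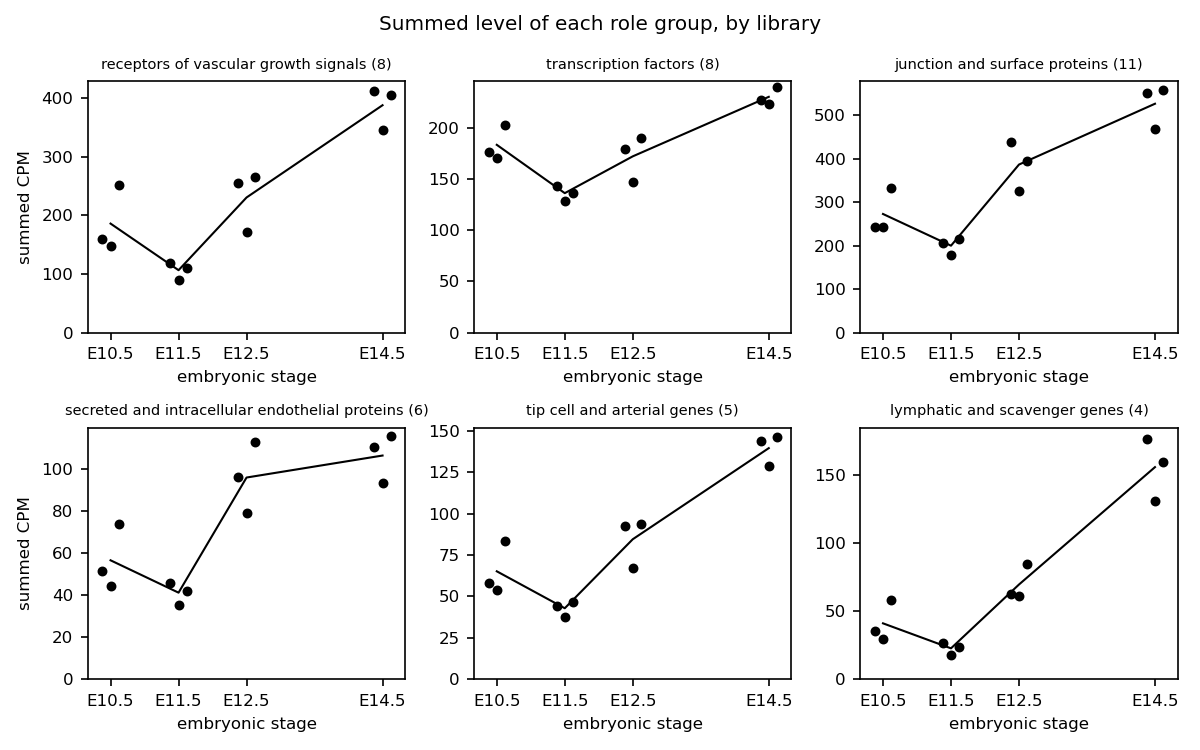
Summed CPM of each of the 6 role groups by stage, with a point for each library, a line through the stage means and the number of genes in parentheses. All 6 groups have their lowest mean at E11.5 and their highest at E14.5. The lymphatic and scavenger group has the steepest course, with a mean of 155.6 CPM at E14.5, against 22.6 CPM at E11.5. Of these sums Stab1 alone gives 124 and 17.9 CPM.

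Levels were compared between genes per kilobase of annotated exon, as mean CPM per kb over the 12 libraries. Cdh5 was highest with 20.1 CPM per kb, followed by Plvap with 16.4, Aplnr with 14.6, Cldn5 with 11.5 and Sox18 with 11.4. The lowest were Stab2 with 0.103, Esm1 with 0.529 and Nos3 with 0.660 CPM per kb. The spread over libraries also differed. The highest library exceeded the lowest by 151.5-fold for Lyve1, 10.4-fold for Stab1 and 9.41-fold for Vwf, and by 1.23-fold for Lmo2.

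Promoter sequence was looked up because 3 of the genes, Erg, Fli1 and Ets1, encode ETS factors, which bind DNA around a GGAA core. The search covered 29 RefSeq (GRCm38.p6) promoter windows for 23 of the 42 genes. Each ran from 250 bases before to 50 after a start. The other 19 genes, Ecscr among them, had no window in the search. Absence from the search does not mean that RefSeq lists no start for a gene. For ETS, only the longer forms AGGAAG and CCGGAA of the GGAA core were searched. AGGAAG, on either strand, was present in 15 of the 29 windows (51.7%), against 35.4% of all 32851 windows searched. CCGGAA was present in 2 (6.9%), against 14.9%, and either in 16 (55.2%), against 45.2%. The SOX cores ACAATG and ACAAAG were present in 2 and 5 windows (6.9% and 17.2%), against 12.6% and 18.7%. These windows are few, and a match is a description of sequence only. The 250 bases before the start are shown for 4 genes on the + strand whose courses differ, 5′ to 3′, with AGGAAG or its reverse complement in capitals. Eng and Robo4 rose at both later steps, Emcn rose and then fell, and Esm1 fell and then rose.
Eng, chr2:32646345-32646594: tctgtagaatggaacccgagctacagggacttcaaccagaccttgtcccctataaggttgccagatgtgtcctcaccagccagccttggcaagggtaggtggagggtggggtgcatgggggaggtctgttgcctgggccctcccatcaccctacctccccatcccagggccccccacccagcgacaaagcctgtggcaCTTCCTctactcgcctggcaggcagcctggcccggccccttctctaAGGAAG
Robo4, chr9:37401722-37401971: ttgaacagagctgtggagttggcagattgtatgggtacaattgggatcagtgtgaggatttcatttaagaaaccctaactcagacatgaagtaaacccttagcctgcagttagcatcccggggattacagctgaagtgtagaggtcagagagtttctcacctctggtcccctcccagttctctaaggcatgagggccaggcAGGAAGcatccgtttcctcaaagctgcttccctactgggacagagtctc
Emcn, chr3:137340828-137341077: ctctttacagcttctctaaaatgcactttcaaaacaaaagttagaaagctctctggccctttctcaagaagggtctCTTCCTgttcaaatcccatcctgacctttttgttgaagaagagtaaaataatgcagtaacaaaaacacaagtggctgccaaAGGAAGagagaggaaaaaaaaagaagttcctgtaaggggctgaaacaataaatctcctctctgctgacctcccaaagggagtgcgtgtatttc
Esm1, chr13:113209409-113209658: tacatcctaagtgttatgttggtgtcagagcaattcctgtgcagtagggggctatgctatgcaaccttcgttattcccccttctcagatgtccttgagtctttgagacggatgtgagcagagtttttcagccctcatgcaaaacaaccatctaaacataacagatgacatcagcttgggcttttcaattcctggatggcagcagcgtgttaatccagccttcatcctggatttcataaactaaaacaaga
In Eng AGGAAG or its reverse complement begins 52 and 6 bases before the start. It begins 49 bases before the start in Robo4, and 174 and 93 bases before it in Emcn. Each sequence shown also holds GGAA or its reverse complement outside AGGAAG, in lower case and not counted. The window of Esm1 holds neither AGGAAG nor CCGGAA. The same is true of all windows of Tek, Flt4, Dll4, Clec14a, Cldn5 and Prox1, which rose at E12.5, and of Tal1, which was not called there.

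Among the receptors, 7 of 8 fell at E11.5 and all 8 rose at both later steps. Over all genes 12.9% fell at E11.5, 27.1% rose at E12.5 and 23% rose at E14.5. Kdr, the main signalling receptor of VEGF-A, measured 51.1, 46.98 and 83.7 CPM at E10.5, 34.01, 24.7 and 32.7 CPM at E11.5, 71.6, 40.4 and 63.7 CPM at E12.5 and 118, 98.9 and 109 CPM at E14.5. Its E11.5 libraries lay below all others, and its E14.5 libraries above all others, while E10.5 and E12.5 overlapped. Kdr fell by 1.01 on the log2 scale at E11.5 (SE 0.21, adjusted p = 0.00361) and rose at E14.5 (log2 fold change 0.82, SE 0.21, adjusted p = 0.006). Its rise at E12.5 (log2 fold change 0.73, SE 0.21, adjusted p = 0.0124) was lost without E11.5 replicate 2 (adjusted p = 0.059) or E12.5 replicate 1 (0.0642). Tie1, the partner of the angiopoietin receptor, measured 23.2, 20.5 and 32.3 CPM at E10.5, 20.5, 15.1 and 17.9 CPM at E11.5, 36.2, 29.2 and 44.9 CPM at E12.5 and 56.4, 48.2 and 56.9 CPM at E14.5. Eng, a co-receptor for TGF-beta and BMP ligands, measured 16.4, 15.3 and 26.5 CPM at E10.5, 12.2, 11.4 and 12.9 CPM at E11.5, 33.7, 29.7 and 47.8 CPM at E12.5 and 61.4, 50.6 and 62.6 CPM at E14.5. Both were lowest at E11.5, and the E12.5 libraries of both lay above those of E11.5 without overlap. Eng had the largest rise of the receptors at E12.5 (log2 fold change 1.38, SE 0.17, adjusted p = 6.02e-05) and was higher at E12.5 than at E10.5 (log2 fold change 0.69, adjusted p = 0.00392), the only receptor to pass in that comparison. Of the other receptors, Flt1, the VEGF-A receptor that limits signalling, and Flt4, the receptor of VEGF-C and VEGF-D, changed by -0.79 and -0.93 on the log2 scale at E11.5, 0.77 and 0.60 at E12.5 and 0.54 and 0.63 at E14.5, all called. Tek, the angiopoietin receptor, changed by -0.93, 0.95 and 0.70, and the phosphatase Ptprb, which acts on Tek and VE-cadherin, by -0.78, 1.32 and 0.82. Robo4, a roundabout family receptor of endothelium, stood at -0.48 without a call at E11.5 (adjusted p = 0.0875) and rose by 0.92 and 0.85 at the later steps. Without E12.5 replicate 2 the rise at E14.5 ended for 6 of the 8 receptors (adjusted p = 0.0861 for Tie1, 0.0522 for Eng, 0.0625 for Tek, 0.0537 for Ptprb, 0.106 for Flt1 and 0.076 for Flt4). The fall of Tie1 at E11.5 (adjusted p = 0.0236) was lost in 5 alternatives, among them library totals and leaving out replicate 2 or 3 of E11.5 or replicate 3 of E10.5 (adjusted p = 0.061 to 0.112). That of Ptprb (0.04) was lost in 11, among them limma-voom, library totals and leaving out E10.5 replicate 1 or 3, any 1 library of E11.5 or E14.5 replicate 1 or 3 (adjusted p = 0.0587 to 0.203). The rise of Flt4 at E12.5 ended without E11.5 replicate 2 (adjusted p = 0.109), E12.5 replicate 1 (0.107) or E12.5 replicate 3 (0.0971). Over the whole course 7 of 8 receptors were higher at E14.5 than at E10.5 (36.6% of all genes). Flt4 was not called (log2 fold change 0.31, adjusted p = 0.174). The call of Kdr in that span (log2 fold change 0.53, adjusted p = 0.034) was lost without E10.5 replicate 1 or 2 or E14.5 replicate 1 or 3 (adjusted p = 0.0558 to 0.14), and that of Flt1 (0.52, adjusted p = 0.019) without E10.5 replicate 1 or 2 or E14.5 replicate 3 (adjusted p = 0.0586 to 0.0994). With the covariate for alignments in no gene both stood below 0 (-0.0073 for Kdr and -0.071 for Flt1).

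The transcription factors parted. Erg, the ETS factor that maintains endothelial identity, measured 11.6, 10.6 and 13.2 CPM at E10.5, 11.3, 13.6 and 10.2 CPM at E11.5, 17.1, 28.8 and 26.4 CPM at E12.5 and 39.8, 37.3 and 48.02 CPM at E14.5. Fli1, its closest relative, measured 61.3, 59.1 and 60.7 CPM at E10.5, 33.1, 27.4 and 32.99 CPM at E11.5, 46.8, 25.99 and 38.4 CPM at E12.5 and 22.6, 21.4 and 22.04 CPM at E14.5. Erg was level over E10.5 and E11.5 in overlapping libraries, and its libraries of E12.5 and E14.5 lay above those of the stage before without overlap. Fli1 had its highest libraries at E10.5 and its lowest at E14.5. Fli1 fell at E11.5 (log2 fold change -0.99, SE 0.16, adjusted p = 6.42e-04) and at E14.5 (log2 fold change -0.83, SE 0.16, adjusted p = 0.00109), and was not called at E12.5 (log2 fold change 0.0376, adjusted p = 0.863). Erg rose at E12.5 (log2 fold change 0.82, SE 0.16, adjusted p = 0.00127) and at E14.5 (log2 fold change 0.72, SE 0.16, adjusted p = 0.00216). In CPM, Fli1 stood above Erg in every library of E10.5 and E11.5 and below it in every library of E14.5. The exon lengths of the genes are 3486 and 3466 bases, so this order also holds per kb. Fli1 is also made by blood cells and by neural crest, and no source of its RNA can be named from whole tissue.

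Ets1, an ETS factor of endothelium, lymphocytes and early neural crest, measured 61.2, 62.4 and 72.2 CPM at E10.5, 59.1, 51.5 and 56.5 CPM at E11.5, 64.3, 46.2 and 66.4 CPM at E12.5 and 87.6, 83.3 and 86.6 CPM at E14.5. Its E14.5 libraries lay above all others, and its E11.5 libraries lay below those of E10.5. Ets1 rose at E14.5 (log2 fold change 0.47, SE 0.11, adjusted p = 0.00343) and was lower at E12.5 than at E10.5 (log2 fold change -0.39, adjusted p = 0.00819), a call lost on library totals (adjusted p = 0.325). Tal1, the helix-loop-helix factor of blood and endothelial precursors, measured 8.63, 7.65 and 12.9 CPM at E10.5, 10.2, 8.11 and 6.95 CPM at E11.5, 10.6, 8.43 and 10.4 CPM at E12.5 and 6.49, 4.67 and 6.45 CPM at E14.5. Its E14.5 libraries lay below all those of the other stages, and it fell at that step (log2 fold change -0.82, SE 0.20, adjusted p = 0.00404). Its partner Lmo2 ranged only from 12.98 to 15.9 CPM over the 12 libraries and passed at no step. Lmo2 tested lower at E12.5 and at E14.5 than at E10.5 (log2 fold change -0.38 and -0.27, adjusted p = 0.00301 and 0.0147). On library totals, the scale of the CPM values, neither was called (log2 fold change -0.13 and 0.0557, adjusted p = 0.239 and 0.584). Of the 12 erythroid genes 2 rose and 4 fell at E14.5 against E12.5, and of the 8 megakaryocyte and platelet genes none rose and 5 fell, where 23% of all genes rose and 24% fell. The part of blood cells in Tal1 was not tested.

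The SoxF factors, which act together in vessel growth and arterial and lymphatic fate, rose at E12.5, where 27.1% of all genes rose. Sox18 averaged 37.05 ± 4.39 CPM at E14.5, against 15.3 ± 3.11 CPM at E12.5 (log2 fold change 1.20, adjusted p = 7.22e-05). Sox7 averaged 15.2 ± 1.10 CPM at E14.5, against 8.34 ± 1.41 CPM at E12.5 (log2 fold change 0.80, adjusted p = 0.00252). Sox17 was the only one of them to fall at E11.5 (-1.17, adjusted p = 0.0034), and it was not called at E14.5 against E12.5 (0.48, adjusted p = 0.101). The rise of Sox18 at E12.5 was small (log2 fold change 0.44, adjusted p = 0.0435) and was lost in 10 alternatives, among them limma-voom and the loss of any 1 library of E11.5 or E14.5 (adjusted p = 0.0528 to 0.179). For Sox17, 16.9% of exon length is shared with a transcript on the opposite strand, and reads of the pair cannot be told apart without strand.

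**Figure D4:**
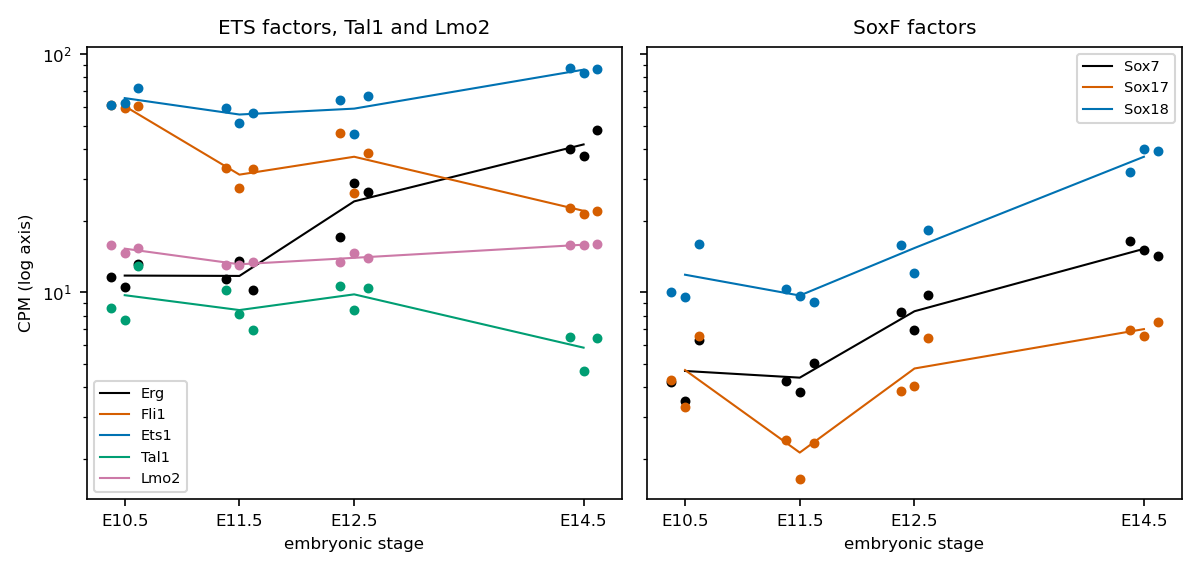
CPM of the 8 endothelial transcription factors by stage on a log axis, with a point for each library and lines through stage means. The Erg and Fli1 lines cross between E12.5 and E14.5, Lmo2 stays between 12.98 and 15.9 CPM, and Sox18 leads the SoxF factors at every stage.

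Of the junction and surface proteins 5 of 11 fell at E11.5, 10 rose at E12.5, and at E14.5 4 rose and 2 fell. Over all genes 12.9% fell at E11.5, 27.1% rose at E12.5, and at E14.5 23% rose and 24% fell. The 2 of 11 that fell at E14.5 are thus not above the share of all genes. Among those that fell, Clec14a (log2 fold change -0.33, adjusted p = 0.0493) lost its call in 14 alternatives, among them limma-voom, library totals and leaving out E10.5 replicate 1 or 3, E12.5 replicate 3 or any 1 library of E11.5 or E14.5 (adjusted p = 0.0669 to 0.207). Cdh5, the VE-cadherin of adherens junctions, measured 54.8, 50.6 and 80.5 CPM at E10.5, 48.4, 39.3 and 49.8 CPM at E11.5, 100.3, 73.03 and 115 CPM at E12.5 and 145, 116 and 140.3 CPM at E14.5. Pecam1, an adhesion molecule of endothelium and platelets, measured 33.1, 33.7 and 43.2 CPM at E10.5, 35.3, 30.1 and 38.6 CPM at E11.5, 88.03, 57.2 and 65.01 CPM at E12.5 and 112, 103 and 118 CPM at E14.5. Cd34, a sialomucin of endothelium and of blood progenitors, measured 36.6, 41.1 and 46.5 CPM at E10.5, 38.1, 35.96 and 41.3 CPM at E11.5, 55.1, 45.7 and 41.8 CPM at E12.5 and 107, 79.2 and 95.5 CPM at E14.5. For Cdh5 and Pecam1 the E12.5 libraries all lay above those of E11.5, and both rose (log2 fold change 0.85 and 0.81, adjusted p = 0.00102 and 9.83e-04). Neither passed at E11.5. Cd34 passed only at E14.5 (log2 fold change 0.90, SE 0.13, adjusted p = 1.44e-04), where its libraries stood above all others. The tight junction protein Cldn5 followed another course: it fell at E11.5 (log2 fold change -0.89, adjusted p = 2.70e-04), rose at E12.5 (0.54, adjusted p = 0.00401), and stood at 20 ± 2.26 CPM at E14.5, against 18.1 ± 3.38 CPM at E10.5 (adjusted p = 0.222).

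Emcn and Ecscr fell at E14.5 while most of the group did not. Emcn, an endothelial sialomucin found mostly on capillaries and veins, measured 33.4, 32.7 and 38.6 CPM at E10.5, 21.6, 20.9 and 21.3 CPM at E11.5, 52.9, 44.99 and 36.4 CPM at E12.5 and 33.1, 31.6 and 38.6 CPM at E14.5. Ecscr, a surface protein that regulates endothelial migration, measured 4.38, 5.32 and 6.53 CPM at E10.5, 4.93, 4.21 and 5.14 CPM at E11.5, 12.4, 8.59 and 9.07 CPM at E12.5 and 7.25, 7.14 and 8.13 CPM at E14.5. Emcn had its highest library at E12.5, and the ranges of E14.5 and E12.5 overlapped. Ecscr libraries of E14.5 lay below those of E12.5 without overlap. Emcn fell at E14.5 (log2 fold change -0.46, SE 0.13, adjusted p = 0.0119). The fall of Ecscr (log2 fold change -0.50, SE 0.18, adjusted p = 0.0371) was lost without E12.5 replicate 1 (adjusted p = 0.16) and without E14.5 replicate 1, 2 or 3 (0.109, 0.091 and 0.0639), and on library totals (0.0788). Clec14a and its ligand Mmrn2, a matrix protein of vessels, rose at E12.5 by 1.16 and 0.77 on the log2 scale, and Clec14a was among the 3 genes that still rose with the share of alignments outside genes in the fit. Plvap, which forms the diaphragms of fenestrae, fell by 1.08 on the log2 scale at E11.5 and rose by 0.89 at E12.5, while its level, 38.05 ± 6.38 CPM at E14.5, against 37.8 ± 7.30 CPM at E12.5, did not pass (adjusted p = 0.797). The junction protein Esam changed by -0.72, 1.08 and 0.62 at the 3 steps, all called, its fall at E11.5 being lost without E10.5 replicate 3 (adjusted p = 0.0519), E11.5 replicate 1 (0.0529) or E11.5 replicate 2 (0.0528). The adhesion receptor Adgrl4 passed only at E12.5 (0.91).

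Of the 6 secreted and intracellular proteins 3 fell at E11.5, 5 rose at E12.5 and none was called at E14.5. Over all genes 12.9% fell at E11.5, 27.1% rose at E12.5, and at E14.5 23% rose and 24% fell. Vwf, the clotting factor that binds platelets, measured 9.38, 4.72 and 14.6 CPM at E10.5, 13.2, 6.48 and 10.1 CPM at E11.5, 27.4, 21.1 and 44.4 CPM at E12.5 and 34, 26.3 and 33.5 CPM at E14.5. Ramp2, the partner of the adrenomedullin receptor, measured 11.3, 11.6 and 15.8 CPM at E10.5, 9.27, 10.1 and 8.57 CPM at E11.5, 21.8, 23.3 and 25.7 CPM at E12.5 and 26.4, 26.3 and 29.6 CPM at E14.5. Arhgef15, an intracellular protein of endothelium, measured 13.3, 12.2 and 17.4 CPM at E10.5, 9.86, 8.36 and 10.5 CPM at E11.5, 15.8, 11.8 and 16.98 CPM at E12.5 and 19.01, 12.9 and 19.6 CPM at E14.5. Vwf spread widely within E10.5, E11.5 and E12.5, and its E12.5 libraries all lay above those of the earlier stages (log2 fold change 1.41, SE 0.33, adjusted p = 0.0034). Ramp2 was steadier, fell at E11.5 (log2 fold change -0.50, SE 0.11, adjusted p = 0.00498) and rose at E12.5 (log2 fold change 1.12, SE 0.11, adjusted p = 8.94e-06). Arhgef15 fell at E11.5 (log2 fold change -0.61, adjusted p = 0.0191, and adjusted p = 0.0522 to 0.089 without E11.5 replicate 1, E11.5 replicate 2 or E10.5 replicate 3) and passed at no later step. Egfl7, a secreted protein whose gene hosts miR-126, averaged 17.1 ± 3.45 CPM at E12.5, against 6.69 ± 1.07 CPM at E11.5, and rose (adjusted p = 7.14e-04). Nos3, the endothelial nitric oxide synthase, and Rasip1, needed for vessel lumens, rose at E12.5 by 0.64 and 0.47 (adjusted p = 0.0387 and 0.0435). These calls were lost in 10 and 11 alternatives (adjusted p = 0.0514 to 0.184 for Nos3 and adjusted p = 0.0605 to 0.163 for Rasip1 when lost on leaving out 1 library). Exons of another gene overlap 33.4% of the exon length of Ramp2 (Vps25), 25.2% of Nos3 (an antisense transcript) and 20.4% of Rasip1 (Izumo1). Reads that fit over 1 gene are listed apart as ambiguous (6.31% to 6.90% of each table). The CPM and CPM per kb of these genes may therefore be too low. Megakaryocytes and platelets also make Vwf. Their marker genes summed to 31.0 to 39.1 CPM at E12.5, against 44.3 to 54.5 CPM at E11.5. Of the 8 genes 1 (Itga2b) rose and 4 fell, where 27.1% of all genes rose and 22.2% fell. The part of these cells in Vwf was not tested.

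The genes grouped by name as tip cell and arterial all rose at E14.5, where 23% of all genes rose. Aplnr made up most of their summed level, with 26.5 of 42.8 CPM at E11.5 and 85.1 of 139.6 CPM at E14.5. That sum therefore mainly follows this receptor, and whether its RNA comes from tip or arterial cells was not tested. Aplnr, the apelin receptor, measured 41.6, 37.5 and 63.4 CPM at E10.5, 27.1, 23.04 and 29.4 CPM at E11.5, 65.2, 43.9 and 61.9 CPM at E12.5 and 86.1, 79.6 and 89.7 CPM at E14.5. Notch4, the endothelial Notch receptor, measured 7.82, 8.75 and 10.7 CPM at E10.5, 8.51, 6.06 and 8.10 CPM at E11.5, 13.6, 9.93 and 15.3 CPM at E12.5 and 19.2, 17.4 and 19.1 CPM at E14.5. Apln, the apelin ligand of tip cells, measured 4.63, 4.82 and 6.18 CPM at E10.5, 5.95, 5.78 and 5.79 CPM at E11.5, 9.07, 8.65 and 11.5 CPM at E12.5 and 26.1, 21.5 and 27.4 CPM at E14.5. Aplnr dipped at E11.5 (log2 fold change -0.86, SE 0.17, adjusted p = 0.00217), in libraries below all others, whereas the E11.5 libraries of Apln lay within the range of E10.5. Apln rose at E12.5 (log2 fold change 0.52, SE 0.13, adjusted p = 0.00509) and E14.5 (log2 fold change 1.29, SE 0.12, adjusted p = 4.34e-06), each time without overlap. The rise of Aplnr at E14.5 (log2 fold change 0.50, adjusted p = 0.0226) was lost without E12.5 replicate 2 (0.0999), E14.5 replicate 1 (0.0512) or E14.5 replicate 3 (0.0589). That of Notch4 (log2 fold change 0.45, adjusted p = 0.0321) was lost without E12.5 replicate 2 (0.13) or any 1 library of E14.5 (adjusted p = 0.0539 to 0.13 over these 4). Dll4, the Notch ligand of tip and arterial cells, averaged 8.93 ± 0.791 CPM at E14.5, against 4.36 ± 0.408 CPM at E12.5 (log2 fold change 0.96, adjusted p = 4.77e-04).

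Esm1, a proteoglycan secreted by tip cells, was the gene that moved against the others at E12.5. It was low and measured 1.19, 0.693 and 0.659 CPM at E10.5, 0.953, 1.05 and 1.03 CPM at E11.5, 0.479, 0.321 and 0.758 CPM at E12.5 and 2.50, 2.08 and 1.59 CPM at E14.5. The E12.5 libraries lay below those of E11.5 and E14.5, while they overlapped with those of E10.5. Esm1 fell at E12.5 (log2 fold change -1.18, SE 0.35, adjusted p = 0.0128) and rose at E14.5 (log2 fold change 1.91, SE 0.34, adjusted p = 4.77e-04). Summed over 3 libraries these levels rest on 95 counts at E11.5, 48 at E12.5 and 185 at E14.5. The fall was lost without E12.5 replicate 2 (adjusted p = 0.0528).

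The lymphatic and scavenger genes held the largest change of the 42. Stab1, a scavenger receptor of sinusoidal endothelium and of macrophages, measured 29.5, 22.2 and 48.4 CPM at E10.5, 20.3, 13.8 and 19.8 CPM at E11.5, 48.6, 40.9 and 63.6 CPM at E12.5 and 143, 102 and 128 CPM at E14.5. Prox1, the factor that sets lymphatic identity, measured 4.35, 6.08 and 7.28 CPM at E10.5, 4.70, 3.64 and 3.12 CPM at E11.5, 12.5, 18.8 and 19.4 CPM at E12.5 and 18.98, 17.4 and 17.9 CPM at E14.5. Lyve1, a hyaluronan receptor of lymphatic endothelium and of some macrophages, measured 0.219, 0.283 and 0.408 CPM at E10.5, 0.296, 0.128 and 0.0935 CPM at E11.5, 0.767, 0.609 and 0.956 CPM at E12.5 and 14.2, 10.99 and 12.8 CPM at E14.5. The E12.5 libraries of Prox1 lay above those of E11.5, and the E14.5 libraries of Lyve1 above those of E12.5, without overlap in either case. Prox1 rose at E12.5 (log2 fold change 1.93, SE 0.20, adjusted p = 1.48e-05) and not at E14.5 (log2 fold change 0.0299, adjusted p = 0.909). Lyve1 rose at E12.5 (log2 fold change 1.94, SE 0.36, adjusted p = 8.60e-04) and again at E14.5 (log2 fold change 3.94, SE 0.27, adjusted p = 2.58e-07). At E11.5 the 3 libraries together held 16 counts of Lyve1, and at E12.5 72. Stab1 rose at E14.5 (log2 fold change 1.21, SE 0.22, adjusted p = 6.01e-04) and had fallen at E11.5 (log2 fold change -0.91, adjusted p = 0.0102, and 0.0545 without E11.5 replicate 2). Stab2, its relative in sinusoids, was low, at 0.835 ± 0.324 CPM at E14.5 and 1.37 ± 0.706 CPM at E10.5 (log2 fold change -1.01, adjusted p = 0.036), and the call was lost without E10.5 replicate 3 (adjusted p = 0.208), E14.5 replicate 1 (0.121) or E14.5 replicate 2 (0.112).

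Macrophage markers rose at the same step as Lyve1 and Stab1. At E14.5 against E12.5, 10 of the 12 rose and none fell, with a median log2 fold change of 0.963, where 23% of all genes rose and 24% fell. Mrc1, a mannose receptor of tissue macrophages and of some lymphatic and sinusoidal endothelium, averaged 80.2 ± 8.50 CPM at E14.5, against 18.9 ± 1.30 CPM at E12.5 (log2 fold change 2.01, adjusted p = 2.45e-06). Csf1r, the receptor that macrophages need, averaged 53.98 ± 3.38 CPM at E14.5, against 21.5 ± 1.85 CPM at E12.5 (1.25, adjusted p = 1.25e-06). The part of macrophages in Lyve1, Stab1 and Stab2 was not tested. Prox1 is also made in muscle and neurons. At E12.5, where 27.1% of all genes rose and 22.2% fell, all 6 skeletal muscle markers rose, with a median log2 fold change of 3.08. Of 7 neuronal markers 3 rose and none fell at that step. The part of muscle and neurons in Prox1 was likewise not tested.

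**Figure D5:**
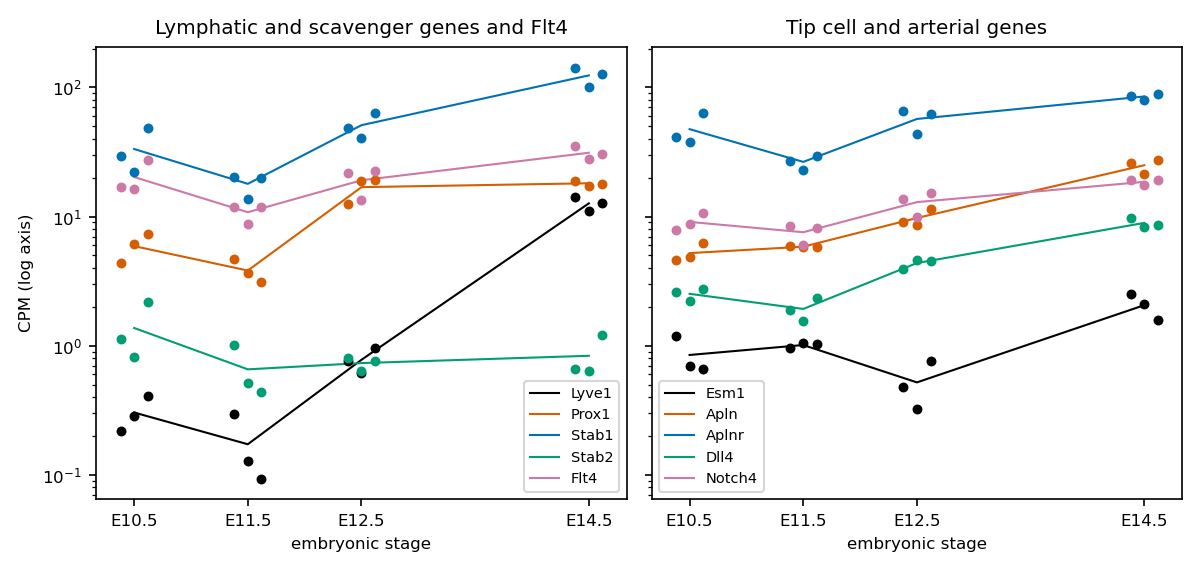
CPM by stage on a log axis for the lymphatic and scavenger genes with Flt4 (left) and for the tip cell and arterial genes (right), with a point for each library and lines through stage means. Prox1 reaches its plateau at E12.5, Lyve1 lies under 1 CPM until E12.5 and at 10.99 to 14.2 CPM at E14.5, and Esm1 is the only gene on the right with its lowest mean at E12.5.

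Each gene was also set against a core of 7 genes (Pecam1, Cdh5, Tie1, Tek, Esam, Erg and Robo4), as the log2 ratio of its CPM to their geometric mean. The core does not stand for endothelial RNA as a whole. At E14.5 against E10.5 the median change of the other 35 genes was -0.511 against the core and -0.255 against Cdh5 alone. A move down over that span can therefore be a rise smaller than that of the reference, and need not be a fall in CPM. The core measured 17.7, 17.8 and 25.3 CPM at E10.5, 16.03, 13.4 and 15.2 CPM at E11.5, 34.4, 26.9 and 34.3 CPM at E12.5 and 54.2, 46.9 and 56.1 CPM at E14.5. At E11.5 none of the other 35 genes moved by over 1 against the core, with changes of -0.65 to 0.70, where 11.6% of all genes moved up and 1.97% down by that much. At E12.5 Prox1 moved up by 1.02 (3.76% of all genes moved up), and Ets1, Lmo2 and Esm1 moved down (38.2% did). At E14.5 Esm1 and Lyve1 moved up (5.71% of all genes), and Fli1, Tal1, Emcn and Ecscr down (24.8%). Set against Cdh5 alone, Emcn and Ecscr did not reach that limit at E14.5, nor Ets1 and Lmo2 at E12.5. Between E10.5 and E12.5 only Vwf moved up (8.37% of all genes) and Fli1, Esm1 and Stab2 moved down (14.5%). Over the whole course Lyve1 moved up by 3.61 and no other gene by over 1 (9.84% of all genes did). Moving down were Fli1 by -2.84, Tal1, Lmo2, Cldn5, Emcn, Plvap, Arhgef15 and Stab2 (50.4% of all genes). Against Cdh5 alone Apln also moved up by over 1 in that span, and Cldn5 and Arhgef15 did not reach the limit. These ratios are a description with no test.

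Among 34 partners of these genes, a list of ligands, co-receptors and Notch, guidance and gap junction genes, 33 were tested. Of these 8 rose and 6 fell at E11.5, 19 rose and 5 fell at E12.5, and 14 rose and 2 fell at E14.5. Over all genes tested 12.2% rose and 12.9% fell at E11.5, 27.1% and 22.2% at E12.5, and 23% and 24% at E14.5. Their median log2 fold changes were -0.00246, 0.57 and 0.24. Vegfa, the ligand of Kdr and Flt1, averaged 37.4 ± 0.948 CPM at E11.5, against 40.4 ± 10.5 CPM at E10.5, and was not called (adjusted p = 0.463), at the step where both receptors fell. It rose to 79.4 ± 2.79 CPM at E12.5 (log2 fold change 0.88, adjusted p = 1.15e-04) and was not called at E14.5 (log2 fold change 0.19, adjusted p = 0.211). Placental growth factor (Pgf), a ligand of Flt1, averaged 10.6 ± 1.23 CPM at E12.5, against 2.92 ± 0.491 CPM at E11.5, and rose (adjusted p = 5.62e-04). The ligands of Flt4 had opposite signs at both later steps. Vegfc rose by 0.67 on the log2 scale at E12.5 and fell by 0.65 at E14.5, while Vegfd fell by 1.30 and then rose by 1.77, to 6.00 ± 1.89 CPM at E14.5, against 1.68 ± 0.464 CPM at E12.5. Vegfd had already fallen at E11.5 (-1.71, adjusted p = 3.49e-04).

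Angpt1, the activating ligand of Tek, averaged 68.3 ± 6.33 CPM at E12.5, against 29.9 ± 3.65 CPM at E11.5, and rose at E11.5 and E12.5 (log2 fold change 0.50 and 0.98). Angpt2, which can block that receptor, fell at E11.5 and rose at E12.5 (-0.996 and 1.05). Hey2, a Notch target of arteries that also acts in other tissues, had the largest change of the list at E11.5 and at E12.5. It rose at E11.5, with 83.4 ± 19 CPM at E11.5, against 9.46 ± 1.41 CPM at E10.5 (log2 fold change 3.10, adjusted p = 1.86e-07), and fell to 7.02 ± 1.29 CPM at E12.5 (-3.79, adjusted p = 6.05e-08). Dll4 and Notch4 rose at E12.5, where Hey2 fell. The rise of Notch4 was lost without E11.5 replicate 2 or E12.5 replicate 3. The rises of Dll4 and Notch4 were lost with the covariate for alignments in no gene. Notch1, a receptor of Dll4, averaged 139.5 ± 3.81 CPM at E14.5, against 60.8 ± 17.8 CPM at E12.5 and rose (1.14, adjusted p = 7.57e-05). Pdgfb, the endothelial signal to pericytes, averaged 18.5 ± 1.77 CPM at E14.5, against 7.64 ± 1.72 CPM at E12.5 and rose (1.20, adjusted p = 2.37e-04). Pericyte and smooth muscle markers rose in 6 of 9 cases at that step and at E12.5, where 23% and 27.1% of all genes rose.

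Of a further 9 endothelial genes outside the 42, 8 were tested. At E11.5 they gave 0 higher and 1 lower (She), where 12.2% of all genes rose and 12.9% fell, so 1 of 8 is near the share of all genes. They gave 7 higher and 0 lower at E12.5 (27.1% and 22.2% of all genes) and 3 higher and 0 lower at E14.5 (23% and 24%). Cd93, a surface lectin that also binds Mmrn2, averaged 94.2 ± 7.98 CPM at E14.5, against 45 ± 8.23 CPM at E12.5 and rose at E12.5 and E14.5 (log2 fold change 0.70 and 0.99). Gpihbp1, which anchors lipoprotein lipase on capillaries, averaged 5.40 ± 0.901 CPM at E14.5, against 1.44 ± 0.619 CPM at E12.5 and rose (1.81, adjusted p = 9.81e-04). Etv2, the ETS factor of early endothelial precursors, was below the filter, and is named after its values were seen. It measured 0.188, 0.283 and 0.220 CPM at E10.5 and was listed at 0 in all E14.5 libraries.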

How the data were processed

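Polyadenylated RNA of 12 libraries was sequenced, and the authors deposited whole-number read counts per gene, 1 table a library. FastQC, STAR 2.7.3a, HTSeq 0.12.4 and the build mm10 are named, per the submitters' processing notes; for the annotation release, the setting for strand and any filter, the values were not given in the sources used here. Closing lines that name no gene (14.3% to 18.6% of each table) were left out of library sizes and tests. IDs were named with the gene names table, and 95 of 53801 had no symbol.

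From the counts, edgeR 4.0.16 (R 4.3.3) fitted all 12 libraries with stage as the only term, TMM scaling, quasi-likelihood tests and a filter at a minimum count of 10, leaving 18365 genes and 8 residual degrees of freedom. P-values were adjusted over these genes by Benjamini and Hochberg, with a threshold of 0.05. The SE of a log2 fold change is its size divided by the square root of F. The script was tested on simulated data. Levels are CPM with SD over 3 libraries; depth was 28294837 to 33941430 counts. Alternatives used DESeq2 1.42.0, limma 3.58.1 (voom), other scalings, filters, libraries and covariates. Scaling on library totals was chosen after seeing the data.

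The genes and lists were chosen with earlier results of these data known. Values per library are given for the 3 members of each role group with the highest mean CPM and for members called against the majority at a step. Of other lists, up to 4 called genes per step with the largest change and at least 5 CPM in the higher stage are named, beside ligands and partners of the receptors.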

Additional observations from a re-analysis of the deposited data

How the results depend on the processing

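The endothelial genes that fell at E11.5 against E10.5 numbered 13 to 24 with any 1 library left out, and 0 rose throughout. At E12.5 against E11.5, 28 to 35 rose and 0 to 1 fell, 0 without E12.5 replicate 2. At E14.5 against E12.5, 15 to 26 rose and 3 to 4 fell. At E12.5 against E10.5, 10 to 20 were higher and 3 to 6 lower, and at E14.5 against E10.5, 22 to 29 and 2 to 5. Over all genes in these fits (18748 to 18979), 1659 to 2646 rose and 1486 to 2478 fell at E11.5 against E10.5. At E12.5 against E11.5, 4043 to 5256 rose and 3327 to 4442 fell. At E14.5 against E12.5, 3568 to 4518 rose and 3270 to 4707 fell. Against E10.5, 4411 to 5453 were higher and 4168 to 4773 lower at E12.5, and 6235 to 7117 and 5671 to 6506 at E14.5. With a covariate for the share of alignments in no gene, 3 endothelial genes rose and 0 fell at E12.5 against E11.5, where 407 and 286 of 18365 genes did so. At E12.5 against E10.5, 3 were higher and 3 lower with it, where 2754 and 2861 genes were. At E14.5 against E10.5, 13 were higher with it, where 3576 genes were. Sox18 at E12.5 against E11.5 (-0.034), Kdr (-0.0073) and Flt1 (-0.071) at E14.5 against E10.5 changed sign with it. On library totals 21 were higher and 1 lower at E12.5 against E10.5, where 7295 and 2565 genes were. At E14.5 against E10.5 on that scale 2 were lower, where 4114 genes were, and Lmo2 stood at 0.056. With only the stages compared in the fit, 3 were lower at E12.5 against E10.5, where 3554 of 16963 genes were. Against Cdh5 alone the median change of the other genes at E14.5 against E12.5 was 0.009, against -0.22 with the 7-gene core. The cause was not tested for any of these. Apart from the covariate, calls kept in every alternative were 13 of 20 at E11.5 against E10.5, 28 of 35 at E12.5 against E11.5 and 18 of 27 at E14.5 against E12.5. Over all genes, deviations from the stage mean correlated by -0.119 to 0.177 in the 18 pairs of libraries with the same replicate number, not over 0.1 in every pair, and 6 of 12 libraries correlated best with their own number. For the endothelial genes replicate 2 had the lowest sum at all 4 stages. With the replicate block 0 rose and 24 fell at E11.5 against E10.5, 35 and 1 at E12.5 against E11.5, 26 and 4 at E14.5 against E12.5, 18 and 6 at E12.5 against E10.5, and 28 and 6 at E14.5 against E10.5. Over all 18365 genes the counts in the same order were 2291 and 2396, 4942 and 4252, 4307 and 4436, 5140 and 4770, and 6769 and 6210. Depth limits Esm1, Stab2 and early Lyve1 most.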
